A study of Danio rerio with 6 samples.

Results

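The genes described here encode the proteins of the cytosolic ribosome of zebrafish. They were taken by symbol, as genes whose name begins with rpl, rps or rplp and a digit, without rps6k and rps19bp names, each represented by its transcript with the highest mean. This gave 81 of 23876 genes in the table, 48 of the large and 33 of the small subunit, from 102 of 45602 transcripts. All 81 passed the filter on low values, and 64 had a single transcript row. The genes rpsa, faua and faub, which also encode ribosomal proteins, fall outside the symbol rule and are given apart. By background knowledge 1 of the 81 is an exception, since the human counterpart of rpl7l1 is known as a factor that takes part in building the large subunit, not as a part of the finished ribosome.

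The 80S ribosome of the cytosol is built from ribosomal RNA and a fixed set of ribosomal proteins, most of them present in a single copy per particle. Proteins named rpl belong to the large subunit, which joins amino acids, and those named rps to the small subunit, which reads the mRNA. The acidic proteins named rplp form a stalk on the large subunit that recruits the translation factors. In vertebrates the mRNAs of these proteins start with a run of pyrimidines, the terminal oligopyrimidine tract, through which nutrient and growth signals set their translation and stability together.

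Transcripts of these proteins were measured by RNA sequencing of polyadenylated RNA from whole zebrafish larvae at 7 days post fertilization, reared at 28.5 °C. Per the labels, 3 pools of 50 wild type larvae (genotype wt) were compared with 3 pools of 50 larvae homozygous for a znf469 mutation (genotype znf469-KO, line znf469-4del), and no other allele or agent is named. The labels do not say whether the wild type larvae were siblings of the mutants or whether pools came from separate clutches, so p-values cover only the variation among these pools, which may be technical. The question in the series title is the part of ZNF469 in making the extracellular matrix, and the ribosome is the machine that makes every matrix protein.

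Values are normalized read counts, that is, reads divided by 1 factor per library, and they are not corrected for transcript length, so levels are compared between libraries and not between genes. Reads over 1 transcript per gene numbered 8111192 to 9683579 per library. On the second principal component over all genes, scores ranged from -27.7 to 8.58 in 4 libraries, while wild type replicate 1 lay at 73.1 and mutant replicate 2 at -63.0; this pair is called below the 2 libraries that stood apart. The znf469 mRNA, which a small deletion can leave in place, was at 296, 198 and 206 in wild type replicates 1 to 3 and at 233, 186 and 209 in mutant replicates 1 to 3, and the groups overlapped. Markers of muscle, neurons, epidermis, liver, pancreas, eye, erythrocytes and cartilage were all present in every library. In a whole-larva library, fewer cells of a type and less RNA per cell cannot be told apart.

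The ribosomal protein transcripts moved together from pool to pool and the genotype groups overlapped in 80 of them. None of the 81 genes passed the test in either direction (0 higher and 0 lower; limma on log2 values with Benjamini-Hochberg adjustment over all 22803 genes tested, threshold 0.05), whereas 2.31% of all genes tested were higher and 2.18% lower, 4.49% in all. At an unadjusted p under 0.05 there was 1 of 81, against 18.2% of all genes tested, and this was rpl7l1. That gene was also the 1 member called by edgeR and by DESeq2, which called 4.67% and 6.44% of all genes tested. The members shared a shift between pools, so these counts are not independent results for 81 genes. The median log2 fold change of mutant over wild type was 0.07, beside 0.00 over all genes tested. In 78 of the 81 genes the log2 fold change was smaller than 0.25 in size, and apart from rpl7l1, rpl29 and rps8b the members lay between -0.19 and 0.24. The 95% confidence intervals spanned 0.95 on the log2 scale at the median, and 80 of 81 lay between -1 and 1, so a doubling or halving lay outside the interval of each gene other than rpl7l1.

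**Figure D1:**
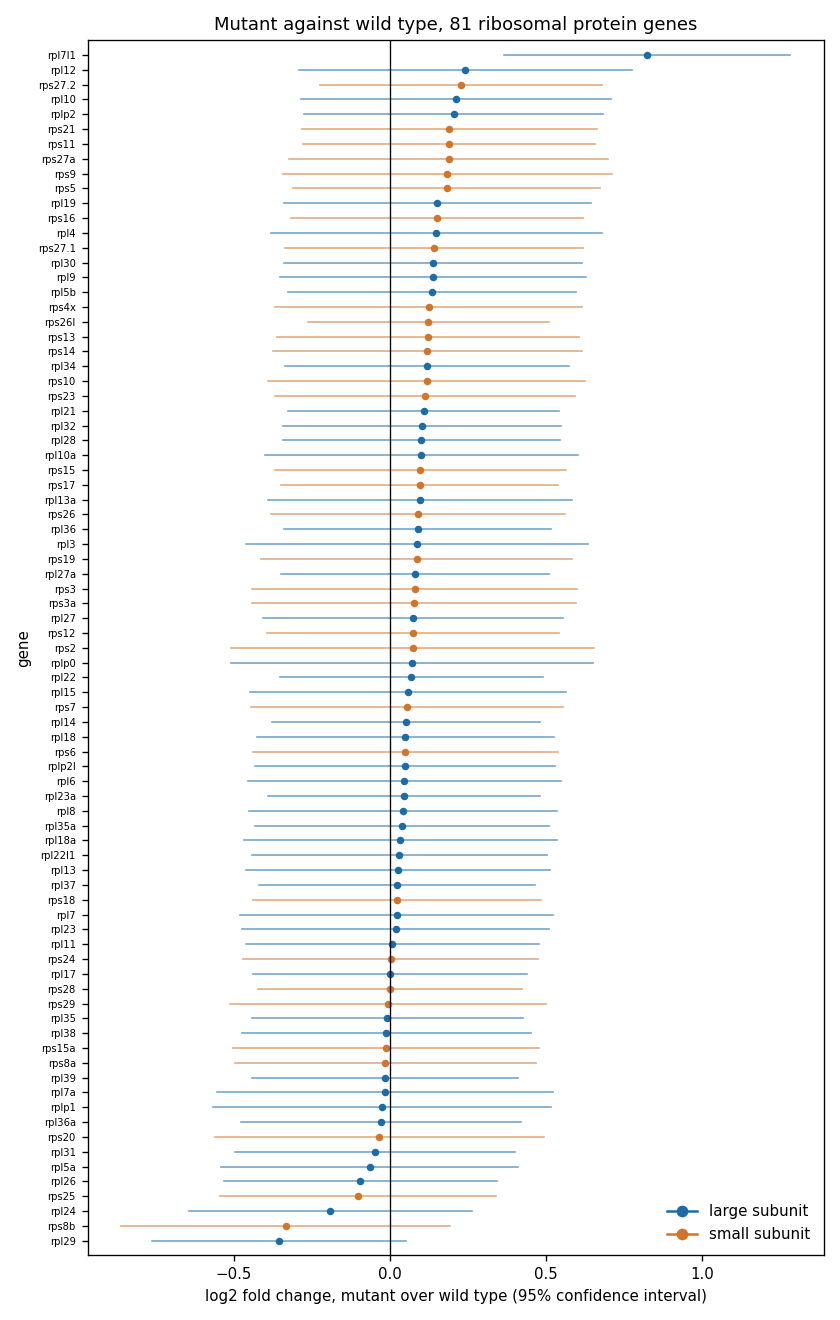
Log2 fold change of mutant over wild type for each of 81 ribosomal protein genes, sorted, with the 95% confidence interval from limma (3 pools per group) and colour for the subunit. The intervals of the other 80 genes include 0, and that of rpl7l1 lies above it (0.82, interval 0.37 to 1.28).

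The spread lay between pools. Relative to each gene's geometric mean over the 6 libraries, the median member stood at 0.853, 0.980 and 1.11 in wild type replicates 1 to 3. In mutant replicates 1 to 3 it stood at 0.889, 1.33 and 0.909. Mutant replicate 2 was thus the high library and the other mutant pools lay among the wild type pools. All 81 genes were higher in mutant replicate 2 than in both other mutant libraries, which held for 50.6% of all genes tested. The ratio of mutant replicate 2 to the mean of the other mutant libraries ranged from 1.21 to 1.68 over members, with a median of 1.49. Over all 10556 genes with a mean of 100 or more its median was 1.13 and its upper quartile 1.36. In wild type, replicate 1 was the lowest and replicate 3 the highest in 80 of 81 genes, against 29.0% of all genes tested, the exception being rpl7l1. The correlation of a gene's log2 level with the median shift of the members over the 6 libraries had a median of 0.98. These points share libraries, and the median includes the gene itself, so the value is a description.

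**Figure D2:**
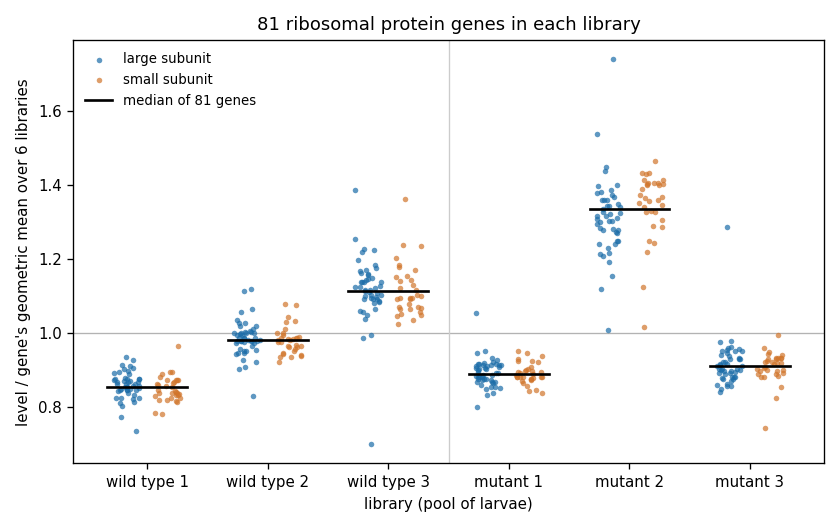
Level of each of 81 ribosomal protein genes relative to its own geometric mean over the 6 libraries, by library, with colour for the subunit and a bar at the median of the genes. The bars stand at 0.853, 0.980 and 1.11 in wild type and at 0.889, 1.33 and 0.909 in mutant replicates 1 to 3.

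Ribosomal protein genes took 7.33%, 7.94% and 8.49% of the reads in wild type replicates 1 to 3 (reads over 1 transcript per gene) and 7.75%, 9.55% and 8.04% in the mutant. The group means were 7.92% ± 0.581 and 8.45% ± 0.966 (SD, n = 3), and the groups overlapped. The level depends on the reads counted. Over all transcripts, in which isoforms share reads, the shares were 4.38%, 4.90% and 5.30% in wild type and 4.53%, 6.23% and 4.74% in mutant replicates 1 to 3. The groups overlapped there too, and mutant replicates 1 and 3 lay below wild type replicates 2 and 3. With 1 transcript per gene, the difference of mutant minus wild type was 0.530 percentage points with all pools. It was -0.021 when mutant replicate 2 was left out, and -0.317 when the 2 libraries that stood apart were left out. In that last comparison of 2 against 2 pools the median log2 fold change of the members was -0.21, beside -0.06 over all genes tested, and 3 members were lower (rpl24 at -0.46, rpl29 at -0.59 and rpl38 at -0.36) and 1 higher (rpl7l1 at 0.61), where 11.8% of all genes tested were called lower and as many higher. Leaving out libraries because they stand apart lowers the spread within groups.

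Other measures moved with the pools in different ways. The clock gene per3 was at 564, 88.3 and 86.1 in wild type replicates 1 to 3 and at 354, 95.9 and 518 in the mutant. The libraries with the least per3 were thus those in which the median ribosomal protein gene was highest, namely wild type replicates 2 and 3 and mutant replicate 2. With the log2 level of per3 as a term in the fit, the median of the members was 0.18 and rpl7l1 was the 1 member called, where 9.2% of all genes tested were. The 3 exocrine pancreas markers found (ctrb1, cpa5 and ela2l) summed to 38347, 32681 and 25049 in wild type, against 34335, 60485 and 42133 in mutant pools, so mutant replicate 2 was highest here too, whereas wild type replicate 3 was the lowest of all. The 5 muscle markers summed to 482061, 515879 and 619640 in wild type and to 369618, 452803 and 303820 in mutant replicates 1 to 3, so that replicate 3 was the highest wild type pool and replicate 2 the highest mutant pool, as for the ribosomal protein genes. The same pools were highest within their groups for the summed eye, liver and dividing-cell markers, and not for neuron, epidermis, pancreas, erythrocyte or cartilage markers. The 12 markers of dividing cells summed to 2105, 2206 and 2364 in wild type, against 793, 1110 and 587 in mutant pools, with no overlap, and none of the 12 was at 0. The part of these measures in the ribosomal protein levels was not tested.

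The large and small subunit genes kept step with each other. The median log2 fold change was 0.05 over the 48 large subunit genes, 36 of them positive. It was 0.09 over the 33 small subunit genes, 26 of them positive. The share of positive genes among all genes tested was 49.9%. Members shared their shift between pools, so their signs are not independent. Without mutant replicate 2 the median over the members of both subunits was -0.12. The mean log2 level of the large subunit genes exceeded that of the small subunit genes by 0.18, 0.17 and 0.16 in wild type replicates 1 to 3 and by 0.16, 0.13 and 0.18 in the mutant. The groups overlapped, and the lowest value belonged to mutant replicate 2. These differences are not corrected for transcript length, so they are compared only between libraries.

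The stalk proteins followed the common pattern. The stalk base protein rplp0, which anchors the acidic pairs, was at 27267, 31795 and 35957 in wild type and at 29469, 43271 and 28315 in mutant replicates 1 to 3. Its mean was 31673 ± 4346 in wild type and 33685 ± 8321 in the mutant (SD, n = 3), and the log2 fold change was 0.07 (SE 0.26; adjusted p = 0.922 in limma). The groups overlapped, with mutant replicate 2 above every other pool. The acidic stalk proteins rplp1, rplp2 and rplp2l had log2 fold changes of -0.03, 0.20 and 0.05. The stalk base protein rpl12, beside which rplp0 sits, was at 0.24 (SE 0.24), the largest positive value after rpl7l1, with mutant replicate 2 at 20117 and the other 5 pools at 11202 to 12910.

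Among the other large subunit proteins, rpl5a, rpl5b and rpl11 are of interest because they form, with the small 5S ribosomal RNA, a particle that joins the growing large subunit as a unit. The level of rpl11 was 7208, 8343 and 9682 in wild type, against 7367, 10717 and 7494 in mutant pools, a log2 fold change of 0.01 (SE 0.21). The log2 fold changes of rpl5a and rpl5b were -0.07 and 0.13. Of the proteins at the catalytic core, rpl3 was at 0.09 and rpl10, which joins late in yeast and completes the large subunit, at 0.21. Around the exit of the nascent chain, rpl23a, rpl26 and rpl39 were at 0.05, -0.09 and -0.02. On the side that faces the small subunit, rpl23 was at 0.02, and rpl36a, near the site where the spent tRNA leaves, was at -0.03. The gene rpl38, whose loss in mice disturbs the axial skeleton, was at 1787, 2338 and 2572 in wild type and at 1868, 2864 and 1958 in mutant pools, with a log2 fold change of -0.01 (SE 0.21). The large subunit genes rpl13a, a translational silencer of inflammatory mRNAs in human monocytes, and rpl35a, mutated in Diamond-Blackfan anaemia, were at 0.09 and 0.04.

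Values of small subunit genes lay in the same range. The S6 kinase substrate rps6 was at 14700, 16616 and 17357 in wild type, against 14492, 21167 and 15282 in mutant pools (log2 fold change 0.05, SE 0.22). The gene rps2, named for its high mean read count, was at 0.07. Genes that are mutated in human Diamond-Blackfan anaemia, a failure of red cell production, lay near 0, with rps19 at 0.09, rps24 at 0.00, rps26 at 0.09 and rps7 at 0.05. The gene lost in the 5q- syndrome of human marrow, rps14, was at 0.12, rps3, which lines the entry of the mRNA channel, at 0.08 and rps28 at 0.00. Of the 3 erythrocyte markers found, the globins hbae3 and hbbe1.1 fell in the mutant, at -1.46 and -1.99, and the heme enzyme alas2, at -1.02, did not pass (adjusted p = 0.030, 0.0079 and 0.092 in limma). Of all genes tested 2.18% were lower, and a link of these markers to the ribosomal protein genes was not tested. The fusion gene rps27a, which is translated as ubiquitin joined to a small subunit protein, was at 0.19 (SE 0.23). Of the ribosomal proteins outside the symbol rule, rpsa was at 0.19 and faua at 0.12. The low copy faub, at 57.7 to 166 normalized read counts, was at -0.63 (SE 0.31, adjusted p = 0.316).

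The gene that stood apart from the rest was rpl7l1. It was at 197, 224 and 188 in wild type and at 284, 470 and 347 in mutant replicates 1 to 3, and the groups did not overlap. No other member showed this in either direction. Thus 1 of 81 was free of overlap with the mutant higher (1.23%) and 0 with the mutant lower, against 11.6% and 11.8% of all genes tested. Here too the members share their shift between pools, so the 81 are not independent. The mean of rpl7l1 was 203 ± 18.4 in wild type and 367 ± 94.5 in the mutant (SD, n = 3). Its log2 fold change was 0.82 (SE 0.21), with an adjusted p of 0.0524 in limma, above the threshold. The adjusted p was 0.0372 with edgeR, 0.00635 with DESeq2 and 0.0524 to 0.159 when any 1 library was left out, and it passed in 10 of 22 other settings. In the authors' deposited table its log2 fold change was 0.85 with a q-value of 0.00104, the 1 member of 81 with a q-value under 0.05, against 8.98% of all genes in that table. Its relative rpl7, a structural protein of the large subunit, was at 12517, 14393 and 15987 in wild type, against 12699, 18793 and 12605 in mutant pools. Its groups overlapped, and its log2 fold change was 0.02 (SE 0.23).

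**Figure D3:**
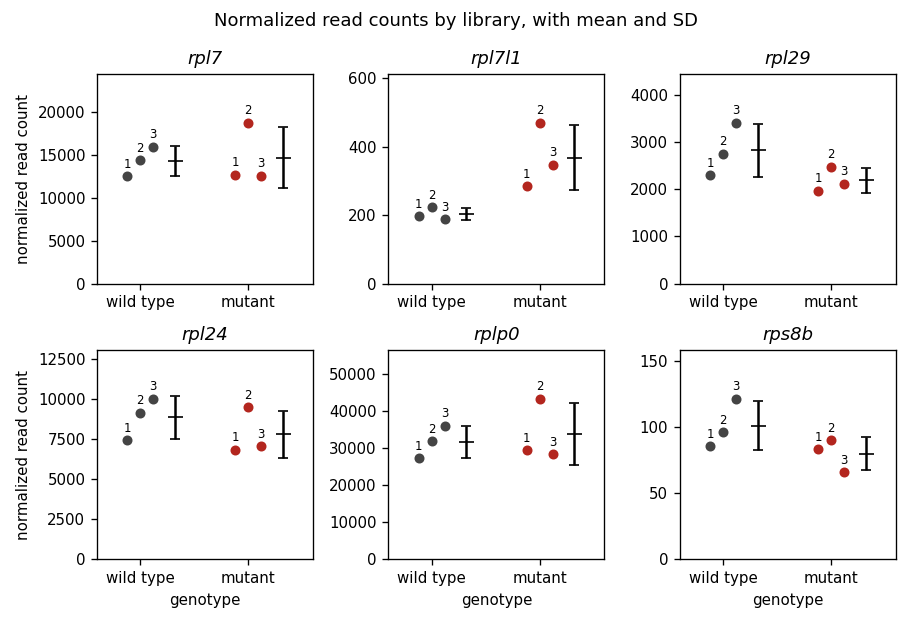
Normalized read counts of 6 ribosomal protein genes by genotype; points are libraries with their replicate number, and the bar gives the mean with SD (n = 3). For rpl7l1 the mutant pools, at 284 to 470, lie above the wild type pools, at 188 to 224, and for the other 5 genes the groups overlap.

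At the low end stood rpl29, rps8b and rpl24. The gene rpl29, whose loss slows growth in mice, was at 2299, 2750 and 3410 in wild type, against 1965, 2476 and 2116 in mutant pools, with means of 2820 ± 559 and 2185 ± 263 (SD, n = 3). Its log2 fold change of -0.36 (SE 0.18) missed the threshold (adjusted p = 0.345 in limma). The groups overlapped by mutant replicate 2 alone, which lay above wild type replicate 1. The gene rpl24, at 7434, 9169 and 10047 against 6852, 9517 and 7058, had a log2 fold change of -0.19 (SE 0.20), and rps8b, the member with the lowest mean, at 66.0 to 122 normalized read counts, one of -0.33 (SE 0.24); in both the overlap again came from mutant replicate 2. Along with rpl26, rps25 and rpl39, these were the 6 members that were not highest in mutant replicate 2 but in wild type replicate 3. The log2 fold changes of rpl26 and rps25 were -0.09 and -0.10.

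Since the members shared a shift between pools, the libraries were also scaled to the median ribosomal protein gene, a setting chosen after the data were seen. This lowered the median SE of the members from 0.21 to 0.10, while over all genes tested it went from 0.28 to 0.31. The shift was taken from the members themselves, so a lower SE of the members is built into this setting and is no test of a shared shift. Relative to the median member, rpl7l1 was at 0.75 (SE 0.19), rpl29 at -0.43 (SE 0.14), rpl24 at -0.26 (SE 0.11) and rps8b at -0.41 (SE 0.22). None of the 81 passed in this setting either (0 higher and 0 lower; adjusted p = 0.090, 0.166, 0.271 and 0.449 in limma for these 4), where 2.69% of all genes tested were called. The remaining members lay within -0.17 to 0.17 of the median member. Such ratios within a library show unequal change and not which gene stayed level.

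Several ribosomal proteins of zebrafish are encoded by gene pairs, and within a pair a shift that both genes share cancels. The genes rpl7l1, a relative of rpl7 and not its copy, and rps8b followed the median shift of the members less closely (correlations 0.48 and 0.47). Their shares can thus still carry the shift of rpl7 and rps8a. Shares were therefore computed as the reads of the second gene in the reads of the pair, for 7 pairs. The share of rpl7l1 in the reads of rpl7 and rpl7l1 was 1.55%, 1.53% and 1.16% in wild type, against 2.19%, 2.44% and 2.68% in mutant pools. The share of rpl5b beside rpl5a was 57.8%, 56.8% and 55.4% in wild type, against 59.3%, 59.3% and 61.6% in mutant pools, a difference of 3.36 percentage points. The share of rplp2l beside rplp2 went the other way, with 46.0% ± 0.875 in wild type and 43.3% ± 1.16 in the mutant (SD, n = 3). In these pairs, and for rps8b beside rps8a (0.804% to 0.847% against 0.601% to 0.770%) and rps27.2 beside rps27.1 (48.6% to 49.4% against 49.5% to 51.7%), the groups did not overlap. Each of these 5 had an exact two-sided permutation p of 0.10, the smallest that 3 against 3 libraries can give, and 0.14 after Benjamini-Hochberg adjustment over 7 pairs, so none passed. For comparison, the groups did not overlap in 28.5% of 1600 pairs of genes named a and b with a mean of at least 50 in the table. Of the 7 pairs, only rpl5a with rpl5b and rps8a with rps8b are named in this way. Most of the 7 are also read far more deeply than that minimum, so the sets are unlike and no excess can be read from them. The shares of rpl22l1 beside rpl22, a pair in which the Rpl22 protein lowers Rpl22l1 expression in mice, overlapped (21.7% ± 1.41 and 21.3% ± 1.36, SD, n = 3), as did those of rps26l beside rps26 (71.7% to 76.3% and 72.5% to 75.6%). How reads that match both copies were counted was not stated in the labels or headers, so shares within near-identical pairs are uncertain.

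**Figure D4:**
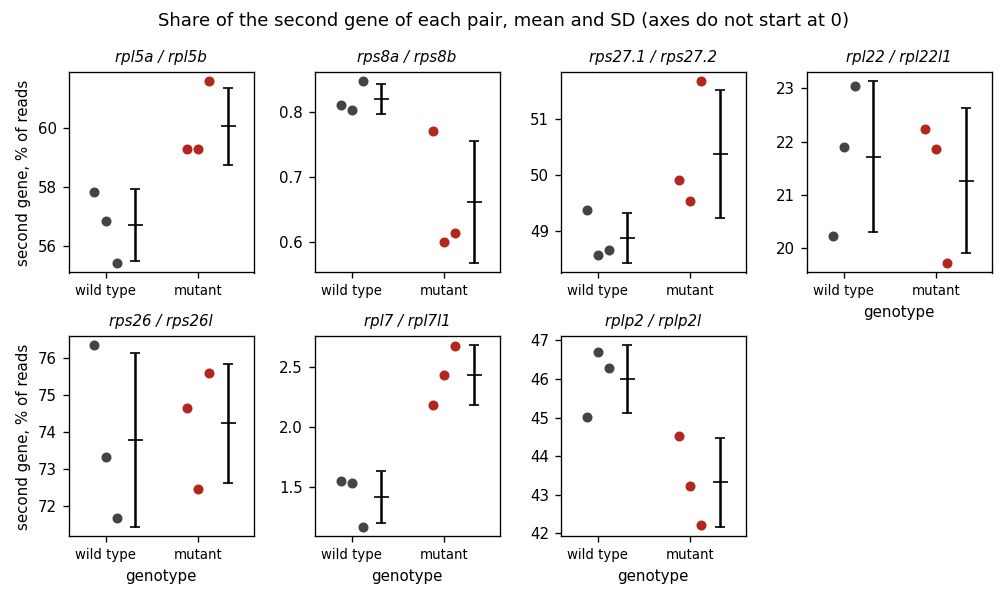
Percent of the reads of each gene pair that belong to the second gene named, by genotype; points are libraries and the bar gives the mean with SD (n = 3), on axes that do not start at 0. The groups do not overlap for 5 of the 7 pairs, each with an exact permutation p of 0.10, the smallest that 3 against 3 libraries can give.

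The machinery that builds ribosomes includes the polymerase for ribosomal RNA, nucleolar processing factors and export adaptors. Of 43 such ribosome biogenesis factors tested, 21 rose, none fell (0) and 22 did not pass, against 2.31% of all genes tested that rose, and 42 had a positive log2 fold change with a median of 0.81. The pre-ribosome export factor rrp12 was at 1407, 1316 and 1464 in wild type, against 3403, 3387 and 4096 in mutant pools, with a log2 fold change of 1.37 (SE 0.15; adjusted p = 0.00107 in limma). The nucleolar factors heatr1, utp15 and noc2l rose by 1.29, 1.28 and 1.26, polr1a, the largest subunit of the polymerase that makes ribosomal RNA, by 1.05, and the export adaptor nmd3 by 0.89. For the median factor the level relative to the mean of the 6 libraries was 0.83, 0.73 and 0.74 in wild type, against 1.12, 1.47 and 1.33 in mutant pools, so that all mutant pools lay above all wild type pools. The number of factors that rose was 6 when either wild type replicate 2 or mutant replicate 3 was left out, 10 without wild type replicate 3 and 13 without mutant replicate 1. Of all genes tested, 0.683%, 0.679%, 1.13% and 1.15% were higher in these settings, in the order named. The number of factors was 33 with the 2 libraries that stood apart left out, where 11.8% of all genes tested were higher. It was 6 without an intensity trend in limma, where 1.2% were higher. With libraries scaled to the median ribosomal protein gene it was 5, where 1.02% were higher. Calls over all genes thus fell or rose in the same settings. The 12 dividing-cell markers went the other way, with 7 lower, 0 higher and a median of -1.53, where 2.18% of all genes tested were lower. Of these markers 4 were lower when either wild type replicate 2 or mutant replicate 3 was left out, and 11 when mutant replicate 2 was. Over all genes tested, 0.439%, 0.755% and 3.44% were lower in these settings, in the order named. Markers of some tissues were lower in the mutant as well. The median was -1.18 for epidermis, with 2 of 4 lower, -0.79 for liver, with 2 of 4 lower, and -0.77 for cartilage, with 1 of 4 lower. The summed levels of these 3 lists were lower in each mutant pool than in each wild type pool, at 49292 to 90114 against 112471 to 135817 for epidermis, 17445 to 28754 against 35084 to 44519 for liver, and 1753 to 3363 against 10216 to 14833 for cartilage. The same held for erythrocyte markers (655 to 1825 against 3251 to 3662, median -1.46) and for the muscle sums given above (median -0.56, 0 of 5 lower). The sums of neuron, eye and exocrine pancreas markers overlapped, with medians of 0.01, -0.46 and 0.65, and 0 passed in any of these lists. Such sums give most weight to the most abundant marker. Single markers ranged from -1.86 to -0.14 for epidermis, -1.40 to 0.15 for liver and -3.22 to 0.04 for cartilage, so not every marker fell. The part of these markers in the rise of the biogenesis factors was not tested.

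**Figure D5:**
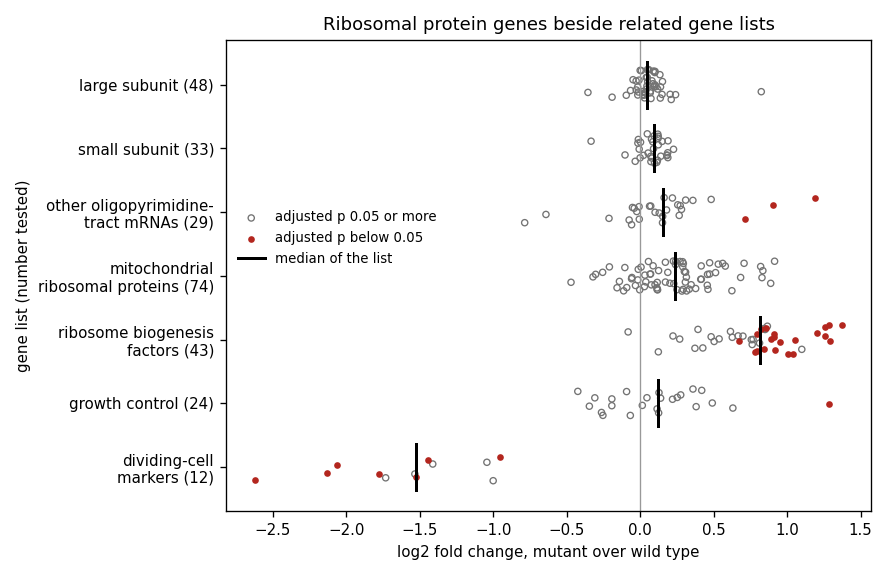
Log2 fold change of mutant over wild type for the ribosomal protein genes of each subunit and for 5 related gene lists; each point is a gene, filled where it passed the test (adjusted p below 0.05), with a bar at the median. The medians of the subunits are 0.05 and 0.09, that of the ribosome biogenesis factors is 0.81 and that of the dividing-cell markers is -1.53.

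Of 29 genes whose mammalian mRNAs also start with the oligopyrimidine tract, the median was 0.15, and -0.04 without the 2 libraries that stood apart. With all pools 3 rose and 0 fell, where 2.31% of all genes tested rose and 2.18% fell. The 3 were the nucleolar chaperone npm1a at 1.19, the initiation factor subunit eif3hb at 0.90 and the initiation factor eif4bb at 0.72 (adjusted p = 0.0076, 0.031 and 0.043 in limma). The count of those that rose was 0 without wild type replicate 2 and 1 without wild type replicate 3, mutant replicate 2 or mutant replicate 3. Over all genes tested, 0.683%, 1.13%, 1.84% and 0.679% were higher in these settings, in the order named. The elongation factors eef1a1l1, eef2b and eef1g were at 0.15, 0.15 and 0.06, and the median gene of this list stood at 1.31 in mutant replicate 2 and at 0.88 to 1.02 in the other 5 pools. Mitochondrial ribosomal proteins, which serve the separate ribosome of mitochondria, had a median of 0.23 over 74 genes, 58 of them positive. Of all genes tested 49.9% were positive. Without the 2 libraries that stood apart the median of the mitochondrial ribosomal proteins was -0.01. None passed in limma (0 higher and 0 lower; 11 at an unadjusted p under 0.05, 0 with edgeR and 4 higher with DESeq2), where 18.2% of all genes tested had an unadjusted p under 0.05 and 3.35% were higher with DESeq2. Groups did not overlap in 17 of the 74 with the mutant higher and in 1 with it lower, against 11.6% and 11.8% of all genes tested. The median gene of that list stood at 0.84, 0.94 and 1.05 in wild type, against 0.966, 1.36 and 0.998 in mutant pools, again with mutant replicate 2 the highest.

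Of 24 genes that control growth and the synthesis of ribosomal proteins, 1 rose and 0 fell, a share (1 of 24) near that of all genes tested, 4.49% in either direction. It was eif4ebp3l, a repressor of cap-dependent translation, at 749, 1384 and 1477 in wild type, against 2246, 3727 and 2652 in mutant pools (log2 fold change 1.29, SE 0.27; adjusted p = 0.0274 in limma), and its call ended without wild type replicate 2, mutant replicate 2 or mutant replicate 3. Groups did not overlap in 6 of the 24 genes with the mutant higher and in 1 with it lower, against 11.6% and 11.8% of all genes tested. The kinase mtor was at 0.01, its partner rptor at 0.14 and larp1, which binds the oligopyrimidine tract, at 0.25. The S6 kinase genes rps6kb1a and rps6kb1b were at 0.63 and 0.49 (adjusted p = 0.126 and 0.141), and the Myc genes myca, mycb, mych and mycn were at -0.07, -0.26, -0.09 and -0.31. No Myc or S6 kinase gene passed the test.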

How the data were processed

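The deposited table gives, per the file headers, 1 value per library for each RefSeq transcript, with the authors' log2 fold change, p-value and q-value. The unit of the deposited signal is not named. In each library 100% of values were whole multiples of the smallest positive value (tolerance 0.001), so they were taken as read counts that the authors scaled by a single factor in each library, 0.937 to 1.08; in wild type replicate 3 it was 0.990, too near 1 to tell apart from rounding with the same ease. GRCz11 was the build, per the submitters' processing notes (aligner, counter and authors' test: not given in the sources used here). Reads over all transcripts, in which isoforms share reads, numbered 17023269 to 19156581.

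Each gene was represented by its highest-mean transcript. Genes that reached a value of 1 in 3 libraries or more were tested with limma 3.58.1 (R 4.3.3, intensity trend) on log2(value + 1), a scale that understates the change of low genes, with Benjamini-Hochberg adjustment. Other settings used edgeR 4.0.16 and DESeq2 1.42.0 on recovered reads. On simulated data the fit recovered 56% of log2 changes of 1 in size and 98% of those of 2, with 10 false calls over 22538 genes. The changed genes were picked only from those with a mean above 100 reads, so these rates do not cover lower genes such as rps8b. Genes were drawn independently there, without a shift shared by the members of a pool. Exact permutation tests were kept for single gene pairs and not given for scores over the members. Members, lists and tests were chosen with earlier results of these data known. Named genes were those with known roles, pairs, the smallest p or largest change, and the highest or lowest mean; rpl41 is not analysed here, some items of the lists are not reported here, and other genes were chosen after their values were seen. No sequences were used.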

Additional observations from a re-analysis of the deposited data

How the results depend on the processing

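No ribosomal protein gene was called lower in the settings tried other than the one without both libraries that stood apart, where 3 were. The count higher was 1, in each case rpl7l1, with a pseudocount of 5, robust weights, edgeR with TMM or RLE, DESeq2, limma-voom, total-count scaling, the replicate block, per3 as a term and without both libraries, and 0 in the rest; in those 10 settings 2.16% to 11.8% of all genes tested were called higher. With 1 library left out it was 0 throughout and the members' median was -0.12 to 0.17. The share of reads over 1 transcript per gene then differed by -0.021 to 0.878 percentage points. Without both libraries the median was -0.21 and the share difference -0.317.

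Over all genes, 497 were lower and 526 higher. Higher genes numbered 273 (1.2%) without an intensity trend and 233 (1.02%) after scaling to the median ribosomal protein gene. In these settings 1.55% and 1.67% were lower. With per3 as a term 899 were lower (3.94%) and 1198 higher (5.25%), and without both libraries 2592 and 2599 (11.8% each). DESeq2 called 3.08% lower and 3.35% higher, and total-count scaling 2.41% and 2.71%. With 1 library left out, 99 to 772 were lower (0.439% to 3.44%) and 152 to 872 higher (0.679% to 3.88%). Same-numbered replicates deviated with correlations of 0.14, 0.13 and -0.26, so no pairing by number was seen. These values cannot exclude that pools shared a clutch or batch, which the labels do not give. The replicate block moved no list count by over 1.5 times.

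Biogenesis factors that rose numbered 6 without an intensity trend, 5 after the scaling and 33 without both libraries (6 to 24 with 1 library left out). Lower dividing-cell markers numbered 3 without an intensity trend and 12 without both libraries (4 to 11 with 1 left out). In the oligopyrimidine list, 0 rose without an intensity trend and 1 with summed transcripts or the scaling (0 to 2 with 1 left out), while 1 fell with DESeq2, total-count scaling, per3 as a term or the scaling, and 2 without both libraries (0 to 1 with 1 left out). Mitochondrial ribosomal proteins that rose numbered 4 with DESeq2, 1 with total-count scaling, 8 with per3 as a term and 2 without both libraries, where 2 also fell. Growth control genes that rose numbered 0 without an intensity trend, 4 with per3 as a term and 2 without both libraries, where 2 fell (0 to 1 rose with 1 left out). Of the ribosomal proteins outside the symbol rule, 1 fell without both libraries. The cause of these moves was not tested. At a depth that gave each member at least 66.0 normalized read counts in every library, the members' median SE was 0.21, and 0.10 after the scaling. That fall is built into the scaling, which is taken from the members.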
